A study of Mus musculus with 2 samples.

Results

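The 6 non-classical major histocompatibility complex (MHC) class I genes H2-T22, H2-T23, H2-Q4, H2-Q6, H2-Q7 and H2-M3 were followed in single cells of mouse ear skin. They were taken by gene name, with earlier results of these data known, and are 6 of the 27998 genes counted. The study profiled ear skin of male ICR mice, an outbred stock, aged 7 to 8 weeks. In the model, allergic contact dermatitis (ACD) is raised with the hapten 2,4-dinitrofluorobenzene (DNFB), painted first on the back at 1.0% to sensitize the animals and 6 days later on the ears at 0.2% to elicit the reaction, and elicited ears were taken at 60 hr. The control library is titled CTRL, and the methods of the study do not state how control mice or ears were treated. Each condition is 1 library of collagenase-digested skin, and the number of animals behind a library is not given in the sources used here. There is therefore no replicate of either condition and no test of ACD against control, and mice that differ in their MHC alleles cannot be told apart from the treatment.

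MHC class I heavy chains pair with beta2-microglobulin (B2m) and display peptides at the cell surface. The classical ones, H2-K1 and H2-D1, are highly variable between individuals and show peptides to CD8+ T cells, whereas the non-classical ones vary less and each serve more specialised receptors. H2-T23 encodes Qa-1, which presents leader peptides of classical class I chains to the CD94/NKG2A receptor of NK cells and of some T cells. H2-T22 is a ligand of a subset of gamma delta T cell receptors and carries no peptide. H2-Q7 encodes Qa-2, a molecule tethered to the membrane by a lipid anchor, H2-Q6 is a close relative of it, and H2-Q4 is a further gene of the Q region. H2-M3 presents peptides that start with N-formylmethionine, as made by bacteria and mitochondria. Class I genes are known targets of interferons, and the number of Q genes differs between inbred mouse strains.

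All 6 are protein-coding genes of chromosome 17 on GRCm38, the build to which the files were aligned. H2-Q4 (chr17:35379617-35385290, + strand), H2-Q6 (chr17:35424850-35430055, +) and H2-Q7 (chr17:35439155-35443773, +) lie side by side, H2-T23 (chr17:36029773-36032855, -) and H2-T22 (chr17:36037128-36042747, -) come next, and H2-M3 (chr17:37270220-37274484, +) is the most distal. Because the 6 genes were higher together in the ACD library, the stretch of each promoter that holds letters of an interferon-stimulated response element (ISRE) is printed, from the RefSeq promoters of GRCm38.p6 and on the strand of the gene. Capitals mark ISRE-type letters (GAANNGAAA or GAAANNGAA, read here as the reverse complement) and, at the start of the stretch of the 3 Q genes, the kappaB letters GGGATTNCC.
H2-T22, chr17:36042924-36042953, - strand, 211 to 182 bases upstream of the start: agagtccctaattggcttagtTTCACTTTC
H2-T23, chr17:36032816-36032845, - strand, 144 to 115 bases upstream of the start: atgaaaagggatcctactgctTTCTCTTTC
H2-Q4, chr17:35379443-35379472, + strand, 174 to 145 bases upstream of the start: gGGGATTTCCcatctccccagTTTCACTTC
H2-Q6, chr17:35424677-35424706, + strand, 173 to 144 bases upstream of the start: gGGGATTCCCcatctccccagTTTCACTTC
H2-Q7, chr17:35439021-35439050, + strand, 134 to 105 bases upstream of the start: tgGGGATTCCCatctccccagTTTCACTTC
H2-M3, chr17:37270112-37270141, + strand, 122 to 93 bases upstream of the start: attcccccatttcctctgaggTTTCACTTC
A promoter was found for 6 of 6 members. An ISRE-type run of either spelling was present, on either strand, within 250 bases upstream of 6 of 6 members and of 12.5% of 32841 promoters. Taken singly, GAANNGAAA was in 4 of 6 members and 6.31% of promoters, and GAAANNGAA in 2 of 6 and 7.13%. The kappaB letters were in 3 of 6 members and 0.822% of promoters, the letters TGATGAC (site alpha of the MHC enhanceosome) in 5 of 6 and 2.69%, CCAAT in 6 of 6 and 33.9%, and TTCNNNGAA (GAS) in 1 of 6 and 7.02%. The spellings were chosen after the promoters had been read, so the counts describe these windows only. The H2-T23 stretch lies inside the span that GENCODE gives the gene.

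The deposited files count unique molecular identifiers (UMIs) for every gene in every barcode. The control library held 12895 barcodes with 99037698 UMIs and the ACD library 13163 barcodes with 126566870 UMIs, of which 12213 and 11665 cells passed the limits on genes, UMIs and mitochondrial share (medians 6850 and 7447 UMIs). Cells were placed in a class where at least 3 of 8 marker genes had a UMI and led every other class by 2, which placed 76.3% and 77.2% of the cells, and 50 barcodes occurred in both libraries. Of 28 check markers that no gate used, 27 in the control and 25 in the ACD library were highest in their own gate. A level is the UMI sum of a gene in a class per 1000000 UMIs of the class (CPM). Ranges in parentheses are exact 95% intervals that cover counting error only and say nothing about animals.

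All 6 members had a higher level in the ACD than in the control library in each of the 6 classes. They were at least 2-fold higher, 6 of 6 in each class, in stromal cells (background 3.91% of all genes with at least 50 UMIs), epithelial cells (2.09%), cartilage cells (1.69%) and glial cells (2.18%). In lymphoid cells 4 of 6 passed that fold (4.7%), and in myeloid cells 4 of 6 (7.92%). Because the member names were chosen with earlier results of these data known, counts set beside a background, here and below, are descriptions and no test. Members were counted here and below without the minimum of 50 UMIs that the background asks of a gene. That minimum was met by 5 of 6 members in epithelial and 4 of 6 in glial cells, and by 6 of 6 in the other classes. The median log2 ratio of the 6 members was 2.03 in stromal, 2.03 in epithelial, 1.86 in cartilage, 4.22 in glial, 1.68 in lymphoid and 1.41 in myeloid cells, where the medians over all genes lay between -0.14 (lymphoid) and 0.00 (stromal). The interval of the ratio lay above 0 for 35 of the 36 pairs of member and class, the exception being H2-M3 in myeloid cells.

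**Figure D1:**
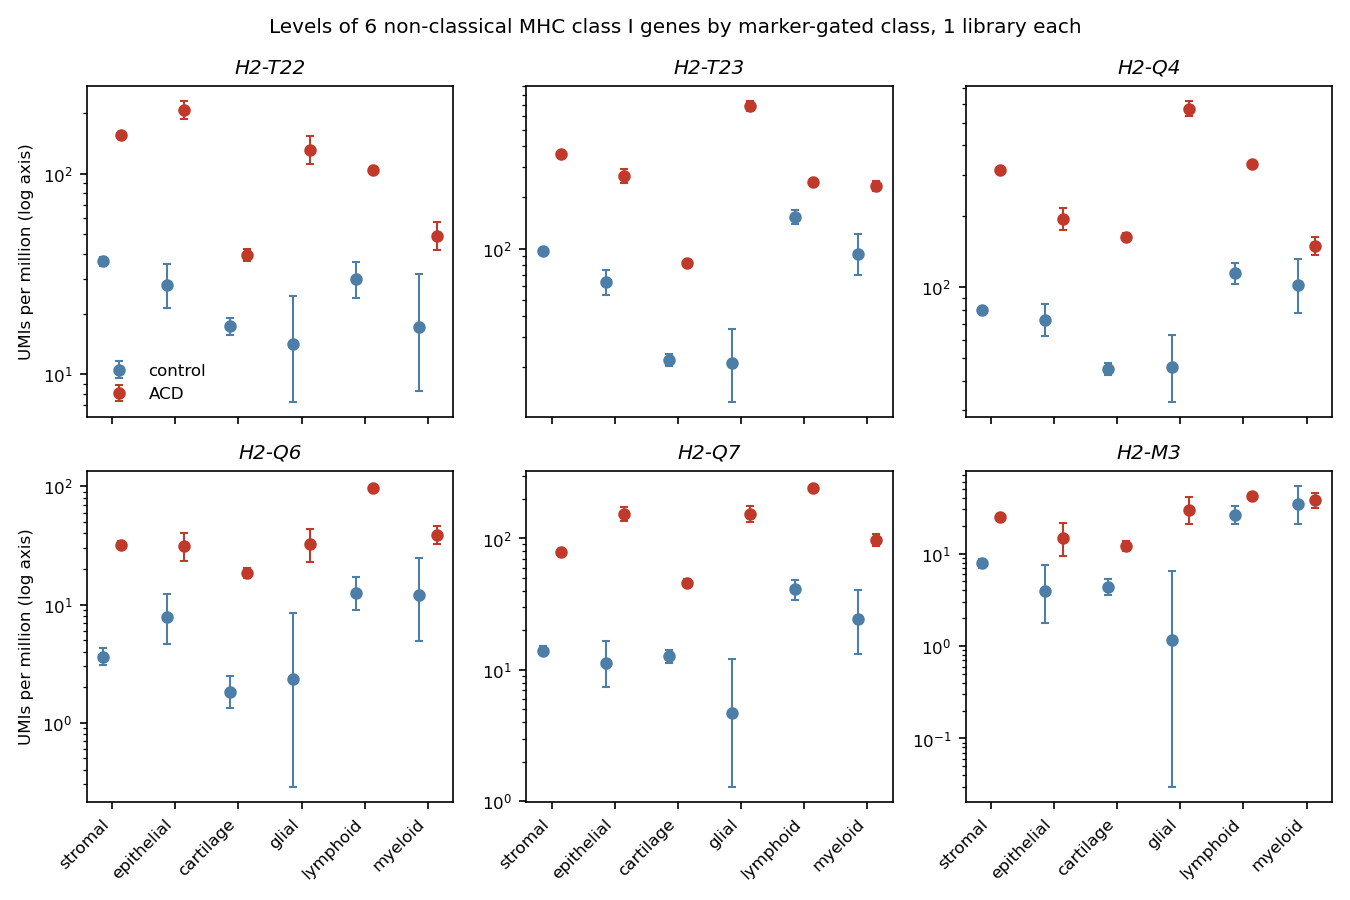
Level of each member in CPM (log axis, a scale of its own in each panel) in the 6 marker-gated classes of the control (blue) and ACD (red) library. Points are 1 library each and bars exact 95% Poisson intervals for counting error; every red point lies above its blue one, with wide gaps in glial cells (H2-T23 21.2 against 688) and the narrowest gap in myeloid H2-M3 (34.6 against 37.5).

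H2-T23, the Qa-1 gene, differed least in lymphocytes and most in glia. In control skin its level was highest in lymphoid cells, at 153 (140.0 to 168) CPM, followed by stromal cells at 96.7 (93.7 to 99.8) and myeloid cells at 93.4 (70.2 to 122), and the last of these intervals covers the stromal level. It was 63.1 (53.3 to 74.3) in epithelial cells. The lymphoid level thus stood above the others in control skin, and the myeloid interval overlapped the epithelial one. Cartilage and glial cells were lowest, at 22.1 (20.3 to 24.1) and 21.2 (12.5 to 33.4), and did not differ beyond counting error. In ACD skin the order was another one, with glial cells at the top at 688 (643 to 736) and stromal cells at 358 (351 to 365). Below them came epithelial cells at 266 (242 to 292), lymphoid cells at 247 (240.2 to 253) and myeloid cells at 233 (217 to 250.1), and cartilage last at 81.9 (78.0 to 86.0). The class with the most H2-T23 in control skin thus held less of it than stromal and glial cells in ACD skin. The log2 ratio was 5.02 (4.35 to 5.79) in glial cells, a 32.5-fold difference resting on 18 UMIs in control and 853 in ACD glia. It was 1.89 (1.84 to 1.94) in stromal, 2.08 (1.80 to 2.35) in epithelial, 1.89 (1.74 to 2.03) in cartilage and 1.32 (0.92 to 1.75) in myeloid cells, and 0.69 (0.55 to 0.82) in lymphoid cells, under 2-fold.

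H2-T22, the gamma delta T cell receptor ligand, was highest in stromal, lymphoid and epithelial cells of control skin, which overlapped at 36.7 (34.8 to 38.6), 29.7 (24.1 to 36.3) and 27.9 (21.5 to 35.6) CPM. Cartilage (17.4, 15.7 to 19.1), myeloid (17.3, 8.29 to 31.8) and glial cells (14.1, 7.29 to 24.6) were lower, with intervals that overlap each other. The myeloid and glial intervals, from 10 and 12 UMIs, also overlap those of lymphoid and epithelial cells. In ACD skin the epithelial level was the highest of the 6 classes, at 207 (186 to 230.1), above stromal cells at 156 (151 to 161) and glial cells at 132 (112 to 153). Lymphoid cells stood at 104 (99.97 to 108), myeloid cells at 49.0 (41.8 to 57.2) and cartilage at 39.3 (36.6 to 42.1). The epithelial log2 ratio of 2.90 (2.51 to 3.30) was the largest of this gene outside glia (3.22, 2.38 to 4.2), and the cartilage ratio of 1.18 (1.0 to 1.35) the smallest. A near-identical gene, H2-T10, was not analysed here. Of the 90-base words in the last 400 bases of H2-T22, 33.8% also occur in H2-T10. Whether reads of H2-T10 were counted as H2-T22, or shared reads were left uncounted, was not tested.

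The Q genes differed from each other in where they were found. H2-Q4 was found in all classes of control skin, from 45 (42.4 to 47.8) CPM in cartilage and 45.9 (32.6 to 62.7) in glial cells to 115 (103 to 127) in lymphoid cells. In ACD skin it ranged from 149.8 (137 to 164) in myeloid to 574 (532 to 618) in glial cells, where its log2 ratio was 3.65 (3.18 to 4.15). The myeloid ratio, 0.55 (0.16 to 0.97), was the only one of H2-Q4 under 2-fold, and it was 1.47 as a mean over cells and 0.15 with gates on cells thinned to 2000 UMIs.

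H2-Q6 was low in 3 non-immune classes of control skin, at 1.83 (1.32 to 2.47) in cartilage, 2.35 (0.285 to 8.49) in glial (2 UMIs) and 3.63 (3.06 to 4.27) in stromal cells, against 12.5 (8.94 to 17.0) in lymphoid cells. Epithelial cells, at 7.84 (4.65 to 12.4), overlapped the lymphoid level. In ACD skin its level was between 18.5 (16.6 to 20.5) in cartilage and 96.1 (92.1 to 100.3) in lymphoid cells, log2 ratios of 3.34 (2.88 to 3.83) and 2.94 (2.49 to 3.43), with stromal cells at 32.0 (29.97 to 34.2). Lymphoid cells thus held the most H2-Q6 in ACD skin, while in control skin the myeloid level, 12.1 (4.87 to 24.9), overlapped theirs. H2-Q7, the Qa-2 gene, had the same leading class, with 41.0 (34.3 to 48.6) in control and 243 (237 to 249.5) in ACD lymphoid cells. Its control myeloid level, 24.2 (13.2 to 40.6), overlapped the control lymphoid one. Epithelial cells held 11.3 (7.40 to 16.6) in control and 153 (135 to 173) in ACD skin, and the log2 ratio was 3.76 (3.18 to 4.40). Glial cells were further apart, with 4.70 (1.28 to 12.0) from 4 control UMIs and 153 (132 to 177) in ACD skin, at 5.03 (3.65 to 6.92) on the log2 scale. No class had an H2-Q7 ratio under 1.86, the value in cartilage.

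H2-M3, the presenter of formylated peptides, was highest in the immune classes of control skin, at 34.6 (21.1 to 53.4) CPM in myeloid and 26.3 (21.0 to 32.5) in lymphoid cells. Stromal cells held 7.85 (7.01 to 8.77), and the other 3 classes were lower still, down to a single UMI in glial cells. In ACD skin the myeloid level was 37.5 (31.2 to 44.7), which overlaps the control interval, for a log2 ratio of 0.12 (-0.57 to 0.88). The lymphoid level was 41.7 (39.1 to 44.5), under 2-fold higher at 0.67 (0.34 to 1.01). The glial interval reached these values, at 29.9 (21.0 to 41.2), while stromal (25.0, 23.2 to 26.9), epithelial (14.7, 9.50 to 21.7) and cartilage cells (12.1, 10.63 to 13.8) were lower. The log2 ratios in glial, stromal and cartilage cells were 4.67 (2.10 to 10.01), 1.67 (1.48 to 1.87) and 1.48 (1.14 to 1.83). The 2 classes with the most H2-M3 in control skin were thus the 2 with the smallest ratios.

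**Figure D2:**
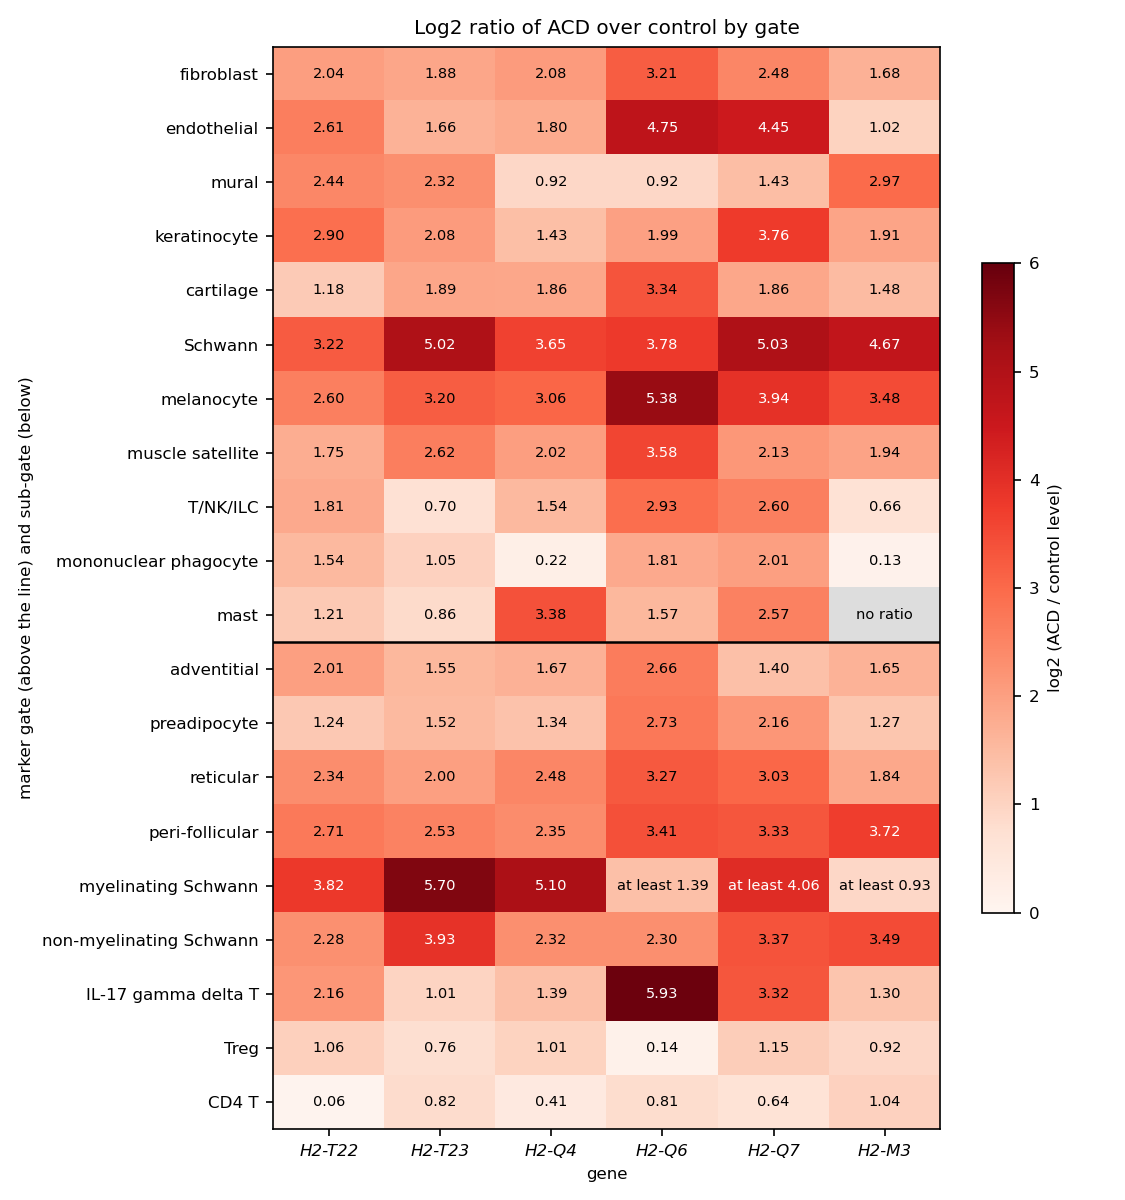
Log2 ratio of the ACD over the control level (color and number) of the 6 members in 11 marker gates and 9 sub-gates with at least 20 cells in each library. The words "at least" mark values where the control library had no UMI, set against 3 UMIs and without the counting error of the ACD level. Gray marks a pair with no ratio. No number is below 0; the Schwann and melanocyte rows are dark throughout and the CD4 T and Treg rows pale.

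Glial cells, all from the Schwann gate, numbered 279 in control and 286 in ACD skin, with medians of 2841 and 3926 UMIs. The 6 log2 ratios spanned 3.22 to 5.03. Among 5449 genes with at least 50 UMIs in this class, H2-Q7 ranked 15 by its log2 ratio, H2-T23 16, H2-Q4 33 and H2-T22 43, and H2-Q6 and H2-M3 had too few UMIs to be ranked. Myelinating Schwann cells, marked by Ugt8a, Cldn19 and Fa2h, held 11.1 (4.09 to 24.2) CPM of H2-T23 in control and 577 (524 to 634) in ACD skin, from 6 and 434 UMIs. In these cells H2-Q6, H2-Q7 and H2-M3 had no UMI in the control library. Set over a floor of 3 UMIs in the control gate, their ACD levels were 2.63-fold, 16.7-fold and 1.91-fold. These floor values leave out the counting error of the 11, 70 and 8 ACD UMIs, so they are not lower limits. Counted by them, 5 of 6 members passed 2-fold (background 1.72%), and 4 of the 6 had the 50 UMIs that the background asks. Non-myelinating cells, marked by Chl1, Nkain4 and Slc35f1, already held more in control skin, with H2-T23 at 62.1 (26.8 to 122) and H2-Q4 at 202 (132 to 296), and reached 944 (835 to 1063) and 1007 (894 to 1129.8) in ACD, the highest H2-Q4 level of any gate or sub-gate here. At least 2-fold higher were 6 of 6 members in the non-myelinating cells (background 5.29%), 4 of them with the 50 UMIs that the background asks. This split was made after the levels had been seen, and it rests on 43 and 54 non-myelinating cells.

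Melanocytes, which share a neural crest origin with Schwann cells and lie outside the 6 classes, were next. H2-T23 went from 99.8 (82 to 120.4) to 916 (862 to 972) CPM, the highest level of this gene in any of the gates of either library. H2-Q6 went from 0.916 (0.0232 to 5.10), a single UMI, to 38.2 (27.9 to 51.1). The 6 ratios had a median of 3.34, and 6 of 6 were at least 2-fold (background 1.91%).

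Within the stromal class the 3 gates differed in which members stood out. Fibroblasts, 4305 control and 2067 ACD cells, had 6 of 6 members at least 2-fold higher (background 3.33%), with H2-Q6 at 3.46 (2.89 to 4.13) against 32.0 (29.7 to 34.3) showing the largest ratio, 3.21 (2.93 to 3.49). Endothelial cells, which line vessels, held the highest control levels of H2-T22 and H2-T23 of any gate with at least 20 cells, 42.3 (30.7 to 56.7) and 161 (138 to 188). These intervals overlapped those of other gates, such as melanocytes for H2-T22 (39.4, 28.5 to 53.1) and T/NK/ILC cells for H2-T23 (152, 139 to 166). In ACD skin the endothelial H2-T22 level, 258 (231 to 287), was again the highest of any gate, but overlapped that of melanocytes, 239 (212 to 268). H2-Q6 and H2-Q7 in endothelial cells went from 2.88 (0.594 to 8.42) and 7.69 (3.32 to 15.1) to 77.5 (63.2 to 94.0) and 168 (147 to 192), 3 and 8 UMIs in control. All 6 members were at least 2-fold higher there (background 3.8%), although H2-M3 was at 1.02 (0.42 to 1.66) on the log2 scale. Mural cells, the pericytes and smooth muscle of vessels, were unlike the others in the Q genes. H2-Q4, H2-Q6 and H2-Q7 had log2 ratios of 0.92 (0.72 to 1.12), 0.92 (0.03 to 1.88) and 1.43 (0.89 to 2.01), the lowest H2-Q6 and H2-Q7 values among the 11 gates, and 4 of 6 members passed 2-fold (background 2.25%). Mural H2-M3, from 4 control UMIs, had a ratio of 2.97 (1.48 to 4.92).

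Fibroblasts were divided further by marker genes. The median log2 ratio of the 6 members was 1.43 in preadipocyte (background 2.03%), 1.66 in adventitial (2.2%), 2.41 in reticular (2.33%) and 3.02 in peri-follicular cells (2.21%), and 6 of 6 were at least 2-fold higher in each. H2-Q7 shows the spread, since its ACD levels were 43.8 (37.4 to 50.9) in adventitial, 76.2 (55.2 to 103) in preadipocyte, 99.7 (90.5 to 109.5) in reticular and 148 (132 to 165) in peri-follicular cells. The control levels of H2-Q7 in the same cells lay between 12.2 and 17.1, with overlapping intervals. Control intervals of H2-Q6 and H2-M3 also overlapped, but those of H2-T22, H2-T23 and H2-Q4 did not all. Control H2-Q4 was 119 (98.3 to 144) in preadipocyte and 69.2 (62.0 to 77.0) in adventitial cells. In ACD skin it was 303 (259 to 352) and 220 (205 to 235), so the lower preadipocyte ratio went with higher levels in both libraries. The preadipocyte values rest on 120 control and 54 ACD cells, with 3 and 12 UMIs of H2-Q6 and 11 and 16 of H2-M3. The study reports that its preadipocyte cluster with raised interferon-inducible genes lost preadipocyte signature genes in ACD. Whether the marker gate misses such cells was not tested, so the medians above do not rank the clusters of the study. Fibroblasts of the ACD library with a UMI of Cxcl9, an interferon-inducible chemokine, held 468 (450.4 to 486) CPM of H2-T23, and those without it 325 (316 to 333). For H2-Q7 the values were 119 (109.8 to 128) and 66.6 (62.9 to 70.5). Cells with a Cxcl9 UMI were deeper, at medians of 14443 against 9921 UMIs, whose part in the difference was not tested. Fibroblasts without Cxcl9 still had higher levels than control fibroblasts without it for all 6 members, with log2 ratios from 1.59 for H2-M3 to 2.94 for H2-Q6.

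The lymphoid values combine subsets whose numbers differed between the libraries. NK/ILC1 cells numbered 3 in control and 297 in ACD skin, CD8+ T cells 13 and 683, CD4+ T cells 35 and 632, regulatory T (Treg) cells 24 and 353, and IL-17 gamma delta T cells 180 and 415. These 5 subsets do not make up the whole T/NK/ILC gate, which held 703 control and 3207 ACD cells. Most of its control cells and a smaller share of its ACD cells were in no subset, and their ratios are not given. How far this mix bears on the class ratios was not tested, but the ratios within subsets were not those of the class. In CD4+ T cells 1 of 6 members was at least 2-fold higher (background 8.9%) and in Treg cells 3 of 6 (11.8%), with median log2 ratios of 0.73 and 0.97. H2-Q6, at 2.94 in the whole class, had a log2 ratio of 0.14 (-0.63 to 1.03) in Treg and 0.81 (-0.19 to 2.04) in CD4+ T cells. Treg cells of control skin already held 117 (64.0 to 196) CPM of H2-Q6, from 14 UMIs. H2-T22 was at 105 (67.2 to 156) in control and 109 (99.8 to 119) in ACD CD4+ T cells, and their log2 ratio of 0.06 (-0.53 to 0.71) was one that counting error cannot tell from 0.

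IL-17 gamma delta T cells, the third subset with enough control cells for a ratio, had 6 of 6 members at least 2-fold higher (background 3.36%) and a median log2 ratio of 1.78. H2-Q6 went from a single UMI, 1.08 (0.0274 to 6.04) CPM, to 66.0 (57.2 to 75.9), and H2-Q7 from 21.7 (13.2 to 33.5) to 216 (199 to 233). H2-T23, at 1.01 (0.76 to 1.26), had the smallest ratio of the 6 in these cells. In the ACD library NK/ILC1 cells had the highest H2-Q6 level of the 5 subsets, 222 (201 to 244), against 129 (115 to 145) in Treg, 88.3 (80.8 to 96.3) in CD8+ T, 66.0 (57.2 to 75.9) in IL-17 gamma delta T and 61.4 (54.5 to 69.0) in CD4+ T cells, the last 2 of which overlapped. H2-T23 had another order, with Treg (355, 331 to 381) and IL-17 gamma delta T cells (338, 317 to 359) above CD4+ T (209, 196 to 222), CD8+ T (193, 182 to 205) and NK/ILC1 cells (174, 156 to 194).

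The myeloid class also differed in makeup, with 52 mononuclear phagocytes, 91 mast cells, 7 basophils and 3 neutrophils in control against 213, 138, 249 and 61 in ACD skin. In phagocytes 4 of 6 members were at least 2-fold higher (background 8.3%). H2-Q7 went from 28.2 (14.1 to 50.5) to 114 (98.4 to 130.5), H2-T23 from 108 (77.7 to 146) to 224 (202 to 247). H2-Q4 and H2-M3 stood at 0.22 (-0.20 to 0.67) and 0.13 (-0.57 to 0.90) on the log2 scale, both with intervals across 0. In mast cells 4 of the 5 members with a ratio were at least 2-fold higher (background 2.15%), but none had the 50 UMIs that the background asks. Only H2-Q4, with 1 control UMI, had an interval above 0, at 3.38 (0.74 to 8.75). With phagocyte and mast gates weighted as in the control library, 3 of 6 members passed 2-fold in the myeloid class, and H2-T23 was below that fold at 0.96. Basophils of ACD skin, too few in control for a ratio, held 299.8 (268 to 334) CPM of H2-T23, above the phagocytes of the same library, and 14.8 (8.44 to 24) of H2-Q6, below them (54.0, 43.7 to 66.0).

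The share of cells in which a member was found was higher in ACD skin as well. Each cell was thinned to 2000 UMIs, and shallower cells (58 control and 20 ACD glial, 75 and 153 myeloid cells, 46 and 14 stromal cells) were left out. In stromal cells 16.7% (15.7% to 17.8%) of control and 43.1% (41.1% to 45%) of ACD cells held H2-T23 (44.0% and 81.6% before thinning). In glial cells the shares were 3.17% (1.28% to 6.42%) and 54.1% (47.9% to 60.2%) (5.73% and 69.2% before thinning), and for H2-Q4 6.79% (3.85% to 10.9%) and 58.3% (52.1% to 64.3%), which overlaps H2-T23. H2-Q7 was held by 5.60% (3.99% to 7.60%) of control and 37.8% (36.1% to 39.5%) of ACD lymphoid cells. H2-M3 was held by 5.30% (3.74% to 7.26%) and 8.05% (7.13% to 9.05%) of them, with overlapping intervals. No glial cell of the control library held H2-Q6 or H2-M3 after thinning, which allows a share of up to 1.36% of cells with a UMI by 3 of 221 cells, and of up to 1.66% by the exact interval. Nucleated cells carry class I molecules in general, so no class that should lack these genes was at hand as a measure of free RNA.

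The members were also found together more often. At the same depth 34.7% of control and 73.9% of ACD stromal cells held at least 1 of the 6, and 0.873% and 14.5% at least 3. In glial cells these shares were 10.9% and 78.2%, and 0% (a count of 0 with the same limit) and 26.3%. Lymphoid cells had the highest share with at least 1 member in either library, 49.3% and 83.4%, and cartilage cells the lowest in ACD skin, 42.4%.

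**Figure D3:**
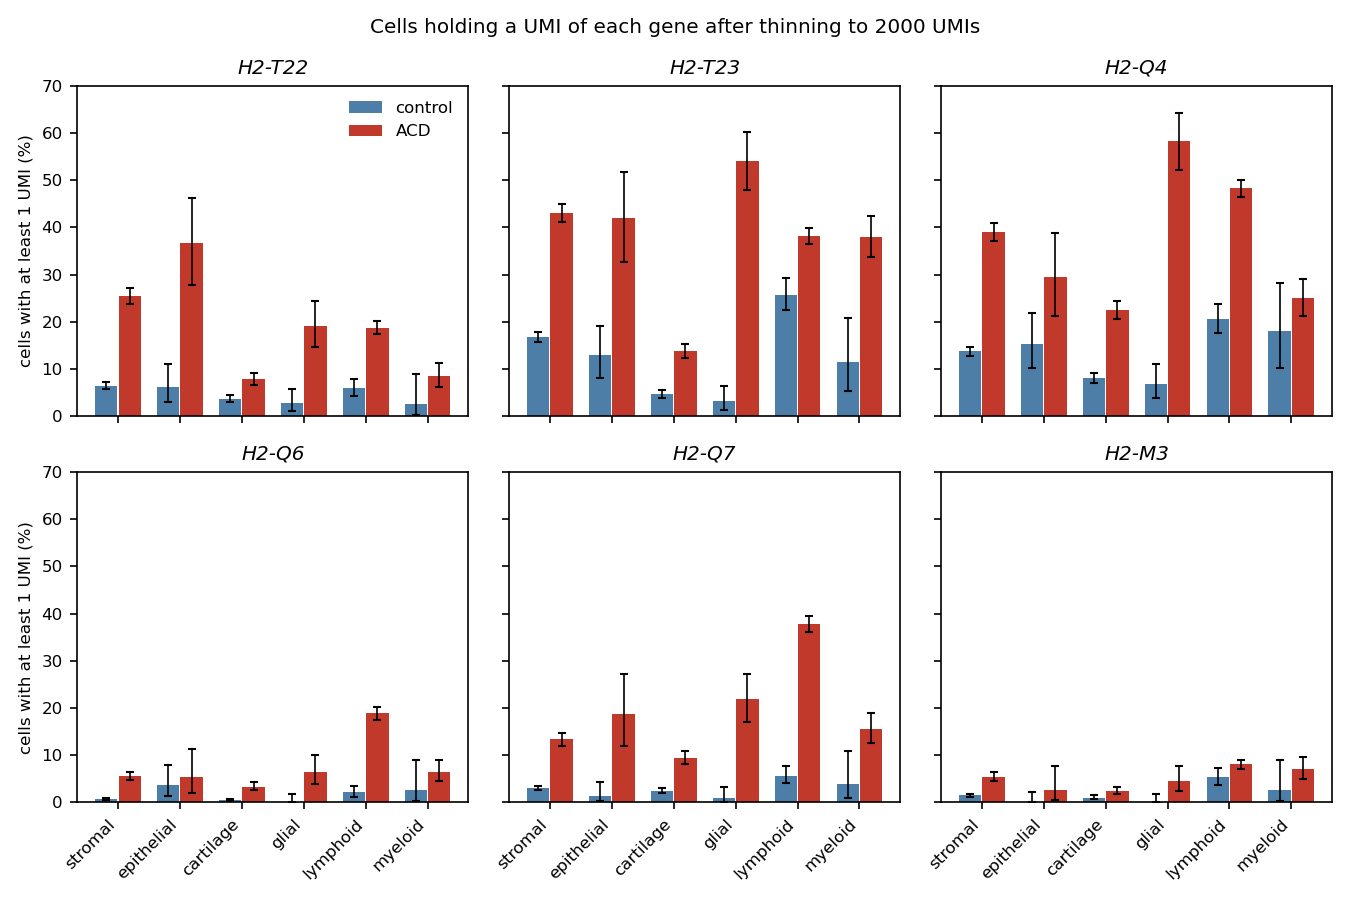
Share of cells (percent) with at least 1 UMI of each member after every cell was thinned to 2000 UMIs, by class, in the control (blue) and ACD (red) library; bars start at 0 and error bars are exact 95% Clopper-Pearson intervals for counting error. Every red bar is taller than its blue one, H2-Q4 and H2-T23 pass 50% in ACD glial cells, and H2-M3 stays under 10% in all classes.

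The classes that held the transcripts differed along with the numbers of cells. In control skin stromal cells made up 40.7% of cells and 43.4% of all UMIs, and held 62.8% of the H2-T23 and 56.5% of the H2-T22 UMIs. Lymphoid cells, 5.80% of cells, held 12.5% of the H2-Q6 and 12.4% of the H2-M3 UMIs. In ACD skin lymphoid cells were 27.8% of cells and 22.4% of UMIs, and held 47.3% of H2-Q6, 48.3% of H2-Q7 and 34.9% of H2-M3. H2-T22 and H2-T23 were found in stromal cells more than in any other class, at 41.1% and 38.5%, with 22.1% and 21.3% in lymphoid cells. Glial cells were 2.45% of ACD cells and held 3.30% of H2-T23, against 0.292% in control skin.

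**Figure D4:**
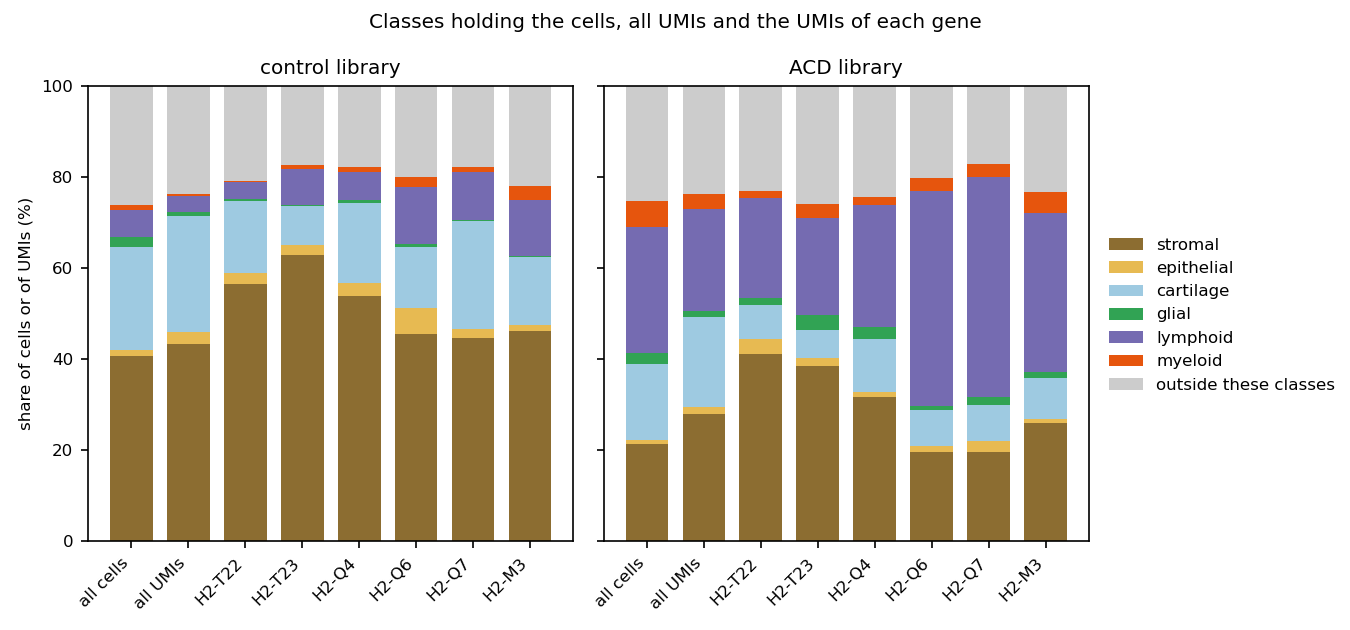
Stacked shares (percent) of all cells, of all UMIs and of the UMIs of each member held by the 6 classes and by cells outside them, in the control and the ACD library. The lymphoid block (purple) covers 10.42% of H2-Q7 in control and 48.3% in ACD skin, and the stromal block (brown) 62.8% and 38.5% of H2-T23.

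Members of a region did not keep one ratio to each other. Of the H2-Q7 and H2-Q6 UMIs together, H2-Q7 made up 87.4% (83.4% to 90.7%) in control and 71.3% (68.8% to 73.8%) in ACD cartilage, but 59.1% (43.2% to 73.7%) and 83.1% (78.5% to 87.1%) in epithelial cells. Of the T genes, H2-T22 made up 16.2% (13.3% to 19.5%) of both in control and 29.7% (28.7% to 30.7%) in ACD lymphoid cells. In glial cells the share went the other way, from 40.0% (22.7% to 59.4%) to 16.0% (13.8% to 18.4%). These are shares of UMIs counted at the 3′ end, so they compare one pair across classes and are not set against gene length. Over 25 points, each a gate of 1 library, log2(CPM + 10) of H2-Q6 and H2-Q7 had a Pearson r of 0.86 and H2-T22 and H2-T23 one of 0.86, the highest of the 15 pairs, whereas H2-T22 and H2-M3 had the lowest, 0.55. The points share libraries and depth, and the correlations are descriptions.

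The classical partners differed along with the members. H2-K1, H2-D1 and the shared light chain B2m had log2 ratios of 3.51, 3.49 and 3.40 in glial cells and of 2.93, 1.96 and 2.72 in stromal cells. In lymphoid cells they were 1.60, 0.96 and 1.44, and in myeloid cells 1.04, 0.81 and 0.78. The 6 members made up 12.5% of the UMIs of members, H2-K1 and H2-D1 together in control and 11.6% in ACD stromal cells, so the non-classical share was slightly lower there. In glial cells the share was 8.09% and 12.3%, in lymphoid cells 8.73% and 11.2%, in epithelial cells 12.5% and 15.8%, and in cartilage cells 11.7% and 8.82%.

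Genes that supply and load peptides, for which Tap1 and Tap2 pump peptides into the endoplasmic reticulum and Psmb8, Psmb9 and Psmb10 form the immunoproteasome, did not all differ. Of 13 such genes, 10 of 13 with enough UMIs were at least 2-fold higher in stromal cells, 8 of 12 in epithelial, 8 of 11 in glial, 6 of 13 in lymphoid, 3 of 13 in cartilage and 2 of 13 in myeloid cells. The shares of all genes past that fold were 3.91%, 2.09%, 2.18%, 4.7%, 1.69% and 7.92% in the same order. The median log2 ratios were 1.56, 1.59, 2.74, 0.99, 0.65 and 0.72. Psmb9 was at 3.62 in stromal and 5.57 in glial cells and Tap1 at 2.93 and 4.50, whereas the chaperones Canx (-0.03 and 0.04) and Pdia3 (0.12 and 0.13) lay near 0. In cartilage Psmb8 and Psmb9 reached 4.27 and 3.14, but Psme1, Psme2 and Psmb10 stood at 0.45, 0.10 and 0.68.

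Of 9 transcription factors of class I and class II genes, 2 of 8 with enough UMIs were at least 2-fold higher in stromal, 1 of 4 in epithelial, 1 of 7 in cartilage, 1 of 4 in glial, 3 of 8 in lymphoid and 1 of 6 in myeloid cells. The same background shares apply, from 1.69% in cartilage to 7.92% in myeloid cells. Nlrc5, the transactivator of class I genes, had 18 control and 187 ACD UMIs in stromal cells, a log2 ratio of 3.90 (3.20 to 4.69). Irf1, an interferon-regulated factor, was at 0.05 in stromal, 0.98 in glial and 0.18 in cartilage cells. The medians of this list, from 0.10 in cartilage to 0.60 in glial cells, were below those of the members in every class. On the receptor side, 12 of 13 receptor genes of NK and T cells were at least 2-fold higher in lymphoid cells (background 4.7%), among them Klrd1 (CD94) at 1.10 (0.93 to 1.27) and Klrc1 (NKG2A) at 2.31 (1.92 to 2.74), the pair that binds the H2-T23 product. These values move with the 3 against 297 NK/ILC1 and 13 against 683 CD8+ T cells, and their part was not tested.

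**Figure D5:**
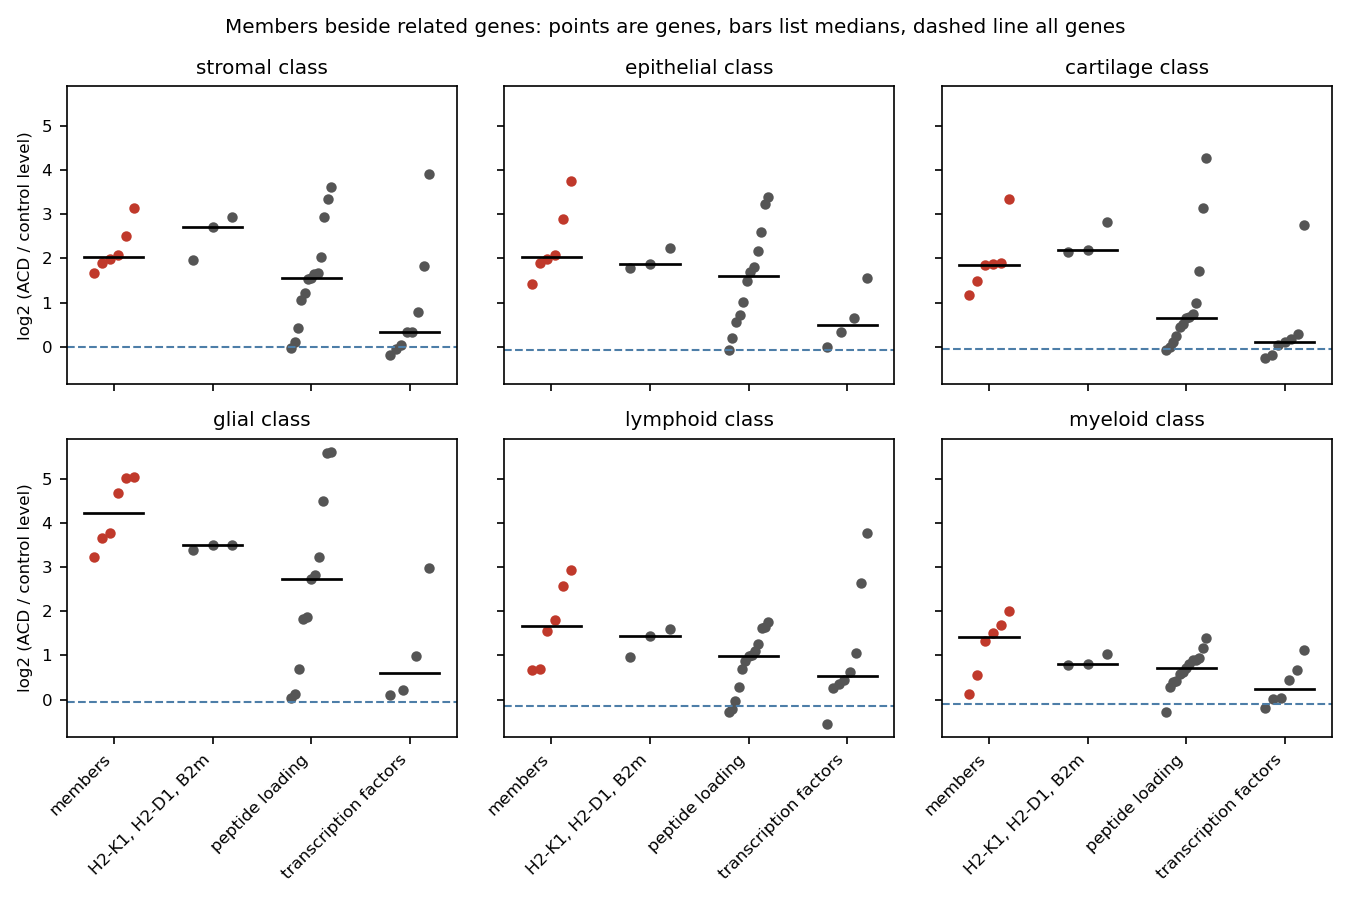
Log2 ratio of the ACD over the control level of the members (red) beside the classical class I genes with B2m, the peptide loading and supply genes and the transcription factors (gray), by class. Points are genes, black bars list medians and the dashed blue line the median of all genes; members have no UMI minimum and the other genes at least 50 UMIs. In glial cells the members' bar is at 4.22 and that of the transcription factors at 0.60.

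Over the same 25 points and 13392 genes, members left out, the 5 genes whose log2 levels were most like each member by Pearson's r are given here. H2-Q7 was most like Tap1 (0.89), H2-K1 (0.89), Psmb9 (0.87), H2-D1 (0.85) and Psmb8 (0.83), and H2-Q6 most like H2-K1 (0.83), Tap1 (0.83), Psmb9 (0.80), Psmb8 (0.76) and Sp140 (0.75). H2-Q4 followed Tap2 (0.87), H2-D1 (0.83), Igtp (0.81), Tap1 (0.80) and H2-K1 (0.80), and H2-T23 followed H2-D1 (0.88), Zbp1 (0.87), B2m (0.86), Tap2 (0.86) and Gbp7 (0.85). For H2-T22 the list held interferon-inducible GTPases and a regulator in place of class I genes, Gbp2 (0.87), Irf7 (0.86), Igtp (0.83), Iigp1 (0.83) and Gbp10 (0.83). For H2-M3 it held Tap2 (0.79), H2-Ab1 (0.78), Irf8 (0.77), Psme1 (0.76) and Zbp1 (0.76), which includes the class II gene H2-Ab1 and Irf8, both known from antigen-presenting cells.

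Genes of T cells were also higher outside lymphocytes in ACD skin. The summed level of 7 T cell genes that no gate uses (Ikzf3, Cd28, Icos, Themis, Cd6, Cd5 and Txk) was, as a share of its level in T/NK/ILC cells, 0.861% in control and 1.18% in ACD stromal cells, 0.560% and 1.05% in glial, 0.760% and 0.910% in epithelial, 2.41% and 2.97% in cartilage and 1.65% and 2.37% in myeloid cells. Of the 7 genes, 6 were higher in ACD than in control in stromal, 4 in epithelial, 7 in cartilage, 6 in glial and 5 in myeloid cells. With every non-lymphoid cell that held a UMI of these genes removed (3.85% of ACD glial, 8.92% of ACD stromal and 9.38% of ACD myeloid cells), the counts of members at least 2-fold higher were the same in these 5 classes. H2-T23 in glial cells then stood at 5.01 and H2-Q7 in stromal cells at 2.49. Cells without a UMI of these genes can still hold free RNA, so the removal cannot show its part, which was not tested.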

How the data were processed

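The authors digested ear skin to single cells, prepared 10x 3′ libraries, aligned them to mm10-1.2.0 with Cell Ranger (3.1.0 in the submitters' processing notes) and deposited raw UMI counts per gene and barcode, with no normalization. From these counts, cells were kept if they had over 200 but under 5000 genes detected, no more than 25000 UMIs, and a mitochondrial share below 8%. In the methods this UMI limit reads as a minimum, and it was applied as a maximum. These limits leave more cells in either library than the study states. Python 3.11.15 with numpy 2.4.6, scipy 1.17.1, pandas 2.3.3, scanpy 1.11.5 (Scrublet) and matplotlib 3.10.9 was used. Cells were gated on markers, since no deposited cell labels were used here. Doublets were kept in the main values; Scrublet called 4.68% of control and 3.29% of ACD cells, which were removed as an alternative.

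Levels are UMI sums over class totals. Poisson and Clopper-Pearson intervals are exact. A ratio needs 20 cells in each library, and background shares count genes with at least 50 UMIs in a class. With 1 library per condition no test was made. Intervals were tested on simulated data. Genes named are the members, fixed lists of related genes and the 5 genes most like each member. The member names and the lists were chosen with earlier results of these data known. Positions are from GENCODE M21 (27645 of 27998 identifiers found). H2-T9, H2-T10, H2-Bl, H2-Q5, H2-Q8 and H2-Q9 were not analysed here, and 2 genes of the fixed lists are not reported here.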

Additional observations from a re-analysis of the deposited data

How the results depend on the processing

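Alternatives were all deposited barcodes, a stricter filter (at least 500 genes, under 5% mitochondrial UMIs), a looser gate (2 markers, lead of 1), a stricter gate (4 markers, lead of 3), gates on cells thinned to 2000 UMIs, Scrublet calls removed, means over cells, median-of-ratios scaling and totals without mitochondrial and ribosomal protein genes. Chosen after seeing the data were the removal of cells with a T cell gene UMI, control weights for the phagocyte and mast gates, and the Schwann split. Members at least 2-fold higher stayed at 6 of 6 in stromal, epithelial, cartilage and glial cells and at 4 of 6 in lymphoid cells under each of these that applies to them; in myeloid cells the count was 3 of 6 with thinned gates and with control weights, and otherwise 4. Which 4 differed as a mean over cells, where H2-T22 was at 0.70 and H2-Q4 at 1.47. Of 365 alternative log2 ratios, 348 stayed within the counting interval of the reported value, 15 left it without a change of sign and 2 changed sign. The latter were H2-M3 in myeloid cells, at -0.0202 under the stricter filter and -0.0321 under the stricter gate. Of the myeloid ratios, H2-Q6 was at 0.43 with thinned gates and 3.38 as a mean over cells, and H2-Q4, H2-T22 and H2-T23 were at 0.15, 2.20 and 2.10 with thinned gates; the cause was not tested. Median-of-ratios scaling moved the median of all genes by 0.14 in lymphoid and 0.11 in myeloid cells and by less than 0.1 elsewhere, and put lymphoid H2-T23 at 0.83. In glial cells H2-M3, with 1 control UMI, ranged from 3.05 to 4.82. Thinning to 1000 UMIs lowered 36 of 36 ACD and 31 of 36 control shares of cells. A minimum of 20 UMIs raised the background to between 2.82% and 9.81% of genes (3.65% in epithelial and 3.76% in glial cells), and adding 1 CPM to both levels lowered it to between 1.28% and 7.54% (2.22% in stromal cells). No paired analysis was possible because each condition was 1 library.

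Counting error is the only error these data can give. Low control counts limit the glial, mast and melanocyte ratios of H2-Q6, H2-Q7 and H2-M3. ICR mice are outbred and reads were aligned to a genome of another strain, and how reads of divergent Q and T alleles or of extra gene copies were assigned was not tested. Words at the 3′ ends were compared with GENCODE M21 transcripts only, so sharing with genes or copies outside that annotation could not be seen. Of the 90-base words, 16.1% of H2-T23, 12.5% of H2-Q4 and 7.72% of H2-Q6 also occur in other genes, and none of H2-Q7 or H2-M3. Of 50-base words the shares are 63.5% of H2-T22, 36.2% of H2-T23, 38.5% of H2-Q4, 40.2% of H2-Q6 (H2-Q4 among the other genes), 0.570% of H2-Q7 and none of H2-M3.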

Other observations

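Muscle satellite cells, 75 in control and 108 in ACD skin, also had 6 of 6 members at least 2-fold higher (background 1.86%). The 50 UMIs that the background asks were met by 4 of these 6. H2-Q4 in them was 139 (103 to 185) CPM in control, level with mononuclear phagocytes at 139 (104 to 181), and 564 (503 to 629.7) in ACD skin. H2-Q6 was 5.81 (0.703 to 21.0) from 2 UMIs and 69.6 (49.5 to 95.1). Cells outside every gate, 2900 and 2659, had a median log2 ratio of 2.48 over the 6 members (6 of 6 at least 2-fold, background 5.3%).

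Class I-like genes outside the 6 did not share one direction. Of 22 in the annotation, 3 of 10 with enough UMIs were at least 2-fold higher in stromal cells (background 3.91%). H2-T24 and H2-Q1 were at 2.06 (1.29 to 2.90) and 2.15 (1.22 to 3.18) on the log2 scale, and H2-Q10 at 1.55 (1.12 to 1.99). Cd1d1 and Mr1, which present lipids and vitamin B metabolites, were at -0.04 (-0.34 to 0.26) and -0.06 (-0.24 to 0.11). H2-M2 was lower in the ACD library, with 47 control and 3 ACD UMIs, at -3.44 (-5.77 to -1.81). In the other classes the counts past 2-fold were 1 of 7 in lymphoid (background 4.7%) and 1 of 5 in cartilage cells (1.69%). They were 0 of 2 in epithelial (2.09%), 0 of 1 in glial (2.18%) and 0 of 4 in myeloid cells (7.92%). In myeloid cells 2 of the 4 were at least 2-fold lower.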
